A study of Mus musculus with 6 samples.

Results

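The laminin and nidogen genes of the mouse jejunal epithelium were followed in 6 RNA-seq libraries, 3 from control mice and 3 from mice that lack Hdac1 and Hdac2 in their intestinal epithelial cells (IEC). The set holds 9 of the 19616 genes in the deposited table, chosen by symbol: the laminin α chains Lama1, Lama3 and Lama5, the β chains Lamb1, Lamb2 and Lamb3, the γ chain Lamc1, and the nidogens Nid1 and Nid2. They were selected with their expression in these same libraries known, so their values and fold changes are given as a description. Where a member is said to be called, that states only on which side of the limits used for all genes it fell, and is no independent test. All 9 passed the filter on low counts. Control mice, named C1, C3 and C3-3, were wildtype, and mutant mice, named H1, H5 and H9, had the genotype villin-Cre Hdac1-/-; Hdac2-/-. Both groups were 3 months old, shared a mixed C57BL/6J, 129SV and CD1 background and gave 1 library each, from jejunal IEC freed from the tissue with EDTA. The villin promoter drives Cre in the intestinal epithelium, so the mesenchymal and immune cells of the mucosa are not the target of the deletion.

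Laminins are cross-shaped secreted proteins, each built from an α, a β and a γ chain, that polymerise into the first sheet of a basement membrane. Nidogens bind the laminin γ1 arm and link that sheet to the type IV collagen network and to perlecan. In the intestine the basement membrane lies beneath the IEC along the crypt-villus axis. IEC hold on to its laminins through integrins and dystroglycan, and both IEC and the mesenchymal cells below are known to supply its parts.

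Nid1 and Lama5 carried the largest increases of the set, and the stretches just upstream of their start sites are therefore shown. They come from RefSeq on GRCm38.p6, where 5 of the 9 genes had a promoter entry, and are written 5′ to 3′ on the strand of the gene. Capitals mark GC boxes (GGGCGG) and CCAAT boxes on either strand.

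Nid1, + strand, chr13:13437352-13437550: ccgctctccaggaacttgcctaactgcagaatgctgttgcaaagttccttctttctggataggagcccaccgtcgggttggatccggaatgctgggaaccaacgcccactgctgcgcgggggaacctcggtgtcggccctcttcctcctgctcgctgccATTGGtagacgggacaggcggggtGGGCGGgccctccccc

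Lama5, - strand, chr2:180225860-180226109: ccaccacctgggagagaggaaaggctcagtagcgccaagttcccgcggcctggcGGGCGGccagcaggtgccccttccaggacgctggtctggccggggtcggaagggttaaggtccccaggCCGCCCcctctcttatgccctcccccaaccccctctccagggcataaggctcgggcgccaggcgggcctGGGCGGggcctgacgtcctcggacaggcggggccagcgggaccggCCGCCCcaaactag

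The 300-base promoter window of Nid1, from 250 bases before to 50 after the start, held 1 GC box and 1 CCAAT box, and that of Lama5 held 4 GC boxes and 0 CCAAT boxes. These motifs are common, since 35.7% of 32851 mouse promoter windows held the GC box and 37.4% the CCAAT box. The Nid1 window had 20 CpG dinucleotides and that of Lama5 had 24, more than 73.5% and 80.0% of promoter windows. Lamb1, whose RNA was low in both groups, had 18 CpG, 2 GC boxes and 1 CCAAT box. Lamb2, also low in both groups, had 4 CpG and neither box. Lamb3, which was higher in mutant IEC, had 2 windows with 2 and 5 CpG and neither box. The letters TGANTCA, an AP-1 motif, and the TATA box TATAAA were in none of these 6 windows, against 7.81% and 13.6% of all windows. The STAT motif TTCNNNGAA was found once, in the Lamb2 window, against 8.3% of all.

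Between 36111035 and 65902344 reads were counted on genes per library, and levels are in CPM after correction of each library's total by its TMM factor. The limit that a count of 0 allows, 3 counts, equalled 0.0405 to 0.079 CPM and covers counting error only. A gene was called when edgeR's quasi-likelihood test gave a Benjamini-Hochberg adjusted p of at most 0.05 over 15618 genes and a change of at least 2-fold. Hdac1 fell from 40.8 ± 7.33 to 3.77 ± 1.16 CPM (SD, n = 3 per group here and below). Hdac2 stood at 27.7 ± 4.72 and 24.5 ± 2.7 CPM, with overlapping groups. The floxed part of Hdac2 is not given in the sources used here, and RNA that lacks it may still be counted, so the check of the labels rests on Hdac1. The 10 epithelial markers, led by Vil1 and Krt8, summed to 13900 to 15800 CPM in control and 11100 to 13600 CPM in mutant IEC.

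Smooth muscle RNA set 2 control libraries apart. Des, the desmin gene, was at 13.3, 14.1 and 0.659 CPM in C1, C3 and C3-3, and at 0.0945, 0.211 and 0.0813 CPM in H1, H5 and H9. Of the 9 smooth muscle and pericyte markers tested, 8 were called decreased in mutant IEC, with Myh11 and Cnn1 at no more than 3 counts in each mutant library. Among all genes tested, 12.7% were called decreased and 12.4% increased. The list summed to 185 to 326 CPM in control and 65.3 to 95.1 CPM in mutant IEC, largely through Mylk. Mylk was at 188, 264 and 180 CPM in C1, C3 and C3-3 and at 55.5, 75.2 and 76.2 CPM in H1, H5 and H9. In C3-3, where Des was low, the sum of 185 CPM was almost all Mylk. The exception among the tested markers was Pdgfrb, a pericyte and fibroblast receptor. It rose from 1.62 ± 0.829 to 13.0 ± 5.52 CPM (log2 fold change 3.00, edgeR adjusted p = 0.001). Fibroblast markers summed to 15.5 to 28.6 CPM in control and 12.5 to 17.6 CPM in mutant IEC, with 0 of 8 tested called increased and 1, Dcn, called decreased. Endothelial markers summed to 2.26 to 6.25 and 2.19 to 4.18 CPM, and of 5 tested, Tie1 was called increased and Esam decreased. Immune markers summed to 116 to 193 CPM in control and 52.3 to 86.1 CPM in mutant IEC. Of 8 tested, Cd14, Cd8a and Cd3g were called decreased and the macrophage receptor gene Csf1r increased. By CD3 staining of jejunal sections, the study reported more T cells in mutant than in wild-type mice. Sections hold the whole mucosa, whereas this RNA came from IEC freed with EDTA. The immune sum, and the smooth muscle sum through Mylk, were lower in every mutant than in any control library. The fibroblast and endothelial sums overlapped. Nid1, Lama5 and Lamc1 were high in every mutant library, and which cells carried their RNA was not tested. In bulk RNA, fewer cells of a type and less RNA per cell cannot be told apart.

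**Figure D1:**
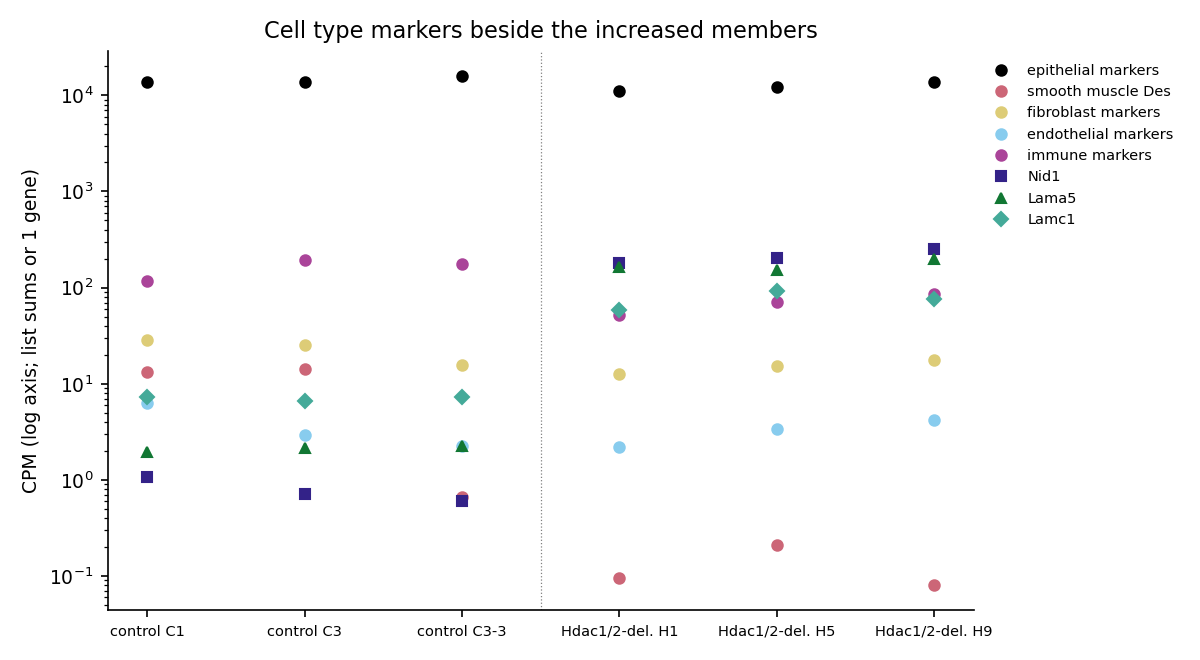
CPM on a log axis in each of the 6 libraries, for summed epithelial, fibroblast, endothelial and immune markers, the smooth muscle gene Des, and Nid1, Lama5 and Lamc1. The fibroblast sum lay at 12.5 to 28.6 CPM in all 6 libraries and Des was high in C1 and C3 alone. Nid1, Lama5 and Lamc1 were each higher in all 3 mutant libraries than in any control library.

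Of the 9 genes, 4 were called increased in mutant IEC, namely Nid1, Lama5, Lamc1 and Lamb3. Over all genes tested, 12.4% were called increased and 12.7% decreased. The members called decreased numbered 0. In 5 members every mutant mouse lay above every control mouse, which held for 26.7% of all genes tested. In 0 members every mutant mouse lay below every control mouse, against 26.6% of all genes, and genes without overlap in either direction made up 53.2%. The fifth was Lama1, at the limit of detection. The median log2 fold change of the 9 was 1.19, against -0.01 over all genes tested. Summed over the set, expression was 55.0 to 99.2 CPM in control and 463 to 619 CPM in mutant IEC. Since the members were chosen on this contrast, nothing is read from these counts.

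**Figure D2:**
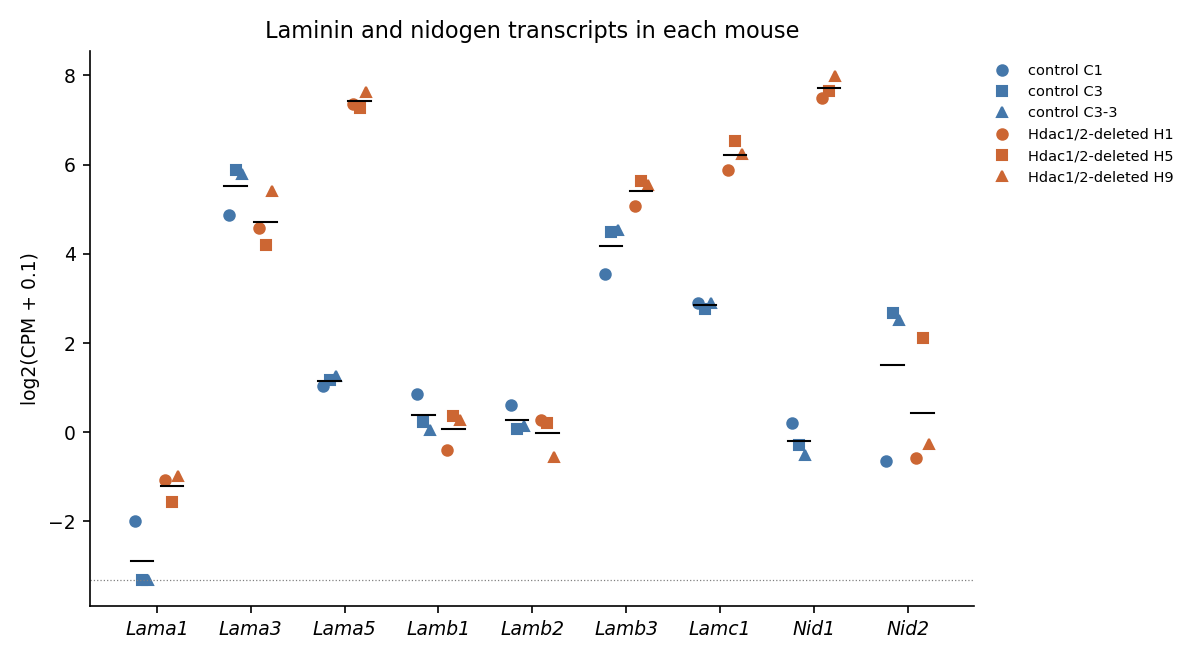
Expression of the 9 genes in each mouse as log2(CPM + 0.1), with a black line at the group mean and a dotted line at 0 CPM. Nid1, Lama5 and Lamc1 separate the groups widely, Lamb3 narrowly, and Nid2 splits the mice without regard to group.

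Lama5 encodes the α5 chain, the widespread α chain of mature epithelial basement membranes. It lies on the minus strand of chromosome 2, at 180176373 to 180225859 of GRCm38. It was counted 129, 120 and 121 times in C1, C3 and C3-3 and 12219, 5856 and 12145 times in H1, H5 and H9. In CPM this was 1.95, 2.16 and 2.28 in control mice and 165, 154 and 197 in mutant mice. The control mice sat close together at a low level, and each mutant mouse lay far above them. The log2 fold change was 6.34 (standard error 0.18), an 80.9-fold difference, and stayed between 6.23 and 6.53 under every alternative processing run.

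Lama3 encodes the α3 chain of the laminin that anchors hemidesmosomes, and is found on the plus strand of chromosome 18, at 12333819 to 12583013. It stood at 29.3, 59.1 and 54.9 CPM in C1, C3 and C3-3 and at 23.9, 18.2 and 42.1 CPM in H1, H5 and H9. H1 and H5 were the lowest, H9 lay above C1, and the groups overlapped. The log2 fold change was -0.77 (standard error 0.37) and was not called, although Lama3 was called decreased without C1 (-1.02) and without H9 (-1.18).

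Lama1 encodes the α1 chain, best known from embryonic basement membranes, and spans 67697259 to 67822647 on the plus strand of chromosome 17. It was counted 10, 0 and 0 times in control and 28, 9 and 25 times in mutant libraries, or 0.151 CPM at most in control and 0.237 to 0.406 CPM in mutant IEC. Even in mutant IEC it stayed near the limit of detection, and all control counts came from C1. Its fitted log2 fold change of 2.62 (standard error 0.98) was not called and depends on how zeros are handled: it was called at 3.88 with limma-voom and at 7.29 without C1.

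Among the β chains, Lamb3 changed. It encodes the β3 chain, the partner of α3 in the hemidesmosomal laminin, and is annotated at 193207699 to 193343878 on the plus strand of chromosome 1. Lamb3 was at 11.6, 22.3 and 23.0 CPM in C1, C3 and C3-3, and at 33.8, 49.6 and 46.3 CPM in H1, H5 and H9. C1 was the lowest and H1 the lowest mutant mouse, and the groups did not overlap. The log2 fold change was 1.19 (standard error 0.27), close to the 2-fold limit. It went under that limit without C1, at 0.94, and without the 2 libraries rich in smooth muscle RNA, C1 and C3, at 0.92. The annotated span of Lamb3 covers Hsd11b1 on the other strand, which was at 0.175 ± 0.0767 CPM in control and 0.141 ± 0.0393 CPM in mutant IEC.

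Lamb1, on the plus strand of chromosome 12 at 31265234 to 31329644, encodes the common β1 chain. It was low throughout, at 1.71, 1.08 and 0.941 CPM in control and 0.661, 1.18 and 1.11 CPM in mutant mice. Lamb2, on the plus strand of chromosome 9 at 108479736 to 108490530, encodes the β2 chain of kidney and neuromuscular basement membranes. It was at 1.42, 0.954 and 0.997 CPM in control and 1.11, 1.05 and 0.585 CPM in mutant mice. For both genes the groups overlapped, C1 held the highest value, and no call was made. The log2 fold changes were -0.35 (standard error 0.39) for Lamb1 and -0.30 (standard error 0.38) for Lamb2. That of Lamb1 turned to 0.07 without C1 and C3.

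Lamc1 encodes γ1, the most widely used γ chain and the one that nidogens bind. It lies at 153218922 to 153332786 on the minus strand of chromosome 1. Its counts were 486, 370 and 391 in control and 4328, 3493 and 4645 in mutant libraries, or 7.34, 6.66 and 7.36 CPM against 58.4, 92.0 and 75.5 CPM. Control mice varied little, and the lowest mutant mouse, H1, was well above them. The log2 fold change was 3.40 (standard error 0.19), which is 10.6-fold.

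Nid1 encodes nidogen-1 and lies at 13437551 to 13512269 on the plus strand of chromosome 13. It was counted 70, 40 and 32 times in C1, C3 and C3-3 and 13305, 7647 and 15651 times in H1, H5 and H9. In CPM these were 1.06, 0.72 and 0.602 in control mice and 180, 201 and 254 in mutant mice. No member changed more. The log2 fold change was 8.05 (standard error 0.28), a 264-fold difference, with 7.89 to 8.46 as the range over all alternatives. It was 8.46 without C1 and C3.

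Nid2, the related nidogen-2, lies at 19751265 to 19811787 on the plus strand of chromosome 14 and behaved unlike Nid1. It was at 0.544, 6.28 and 5.63 CPM in C1, C3 and C3-3 and at 0.567, 4.24 and 0.731 CPM in H1, H5 and H9. C3, C3-3 and H5 were high, C1, H1 and H9 were low, and each group held mice of both kinds. The log2 fold change of -1.20 had a standard error of 1.10 and was not called. The 3′ end of Nid2 overlaps a gene on the other strand, deposited as 2700060E02Rik, which was steady at 67.5 ± 2.32 and 65.7 ± 6.78 CPM.

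The chains were next compared with each other per length, as CPM per kb of annotated exon, with Lama2 and Lama4 counted among the α chains. In control IEC, Lama3 was the main α chain, at 94.4% ± 2.29 of the α chain total, and Lama5 made up 4.27% ± 1.31. In mutant IEC the order was turned around, with Lama5 at 85.5% ± 3.74 and Lama3 at 14.2% ± 3.73. Lama3 itself was at 4.44 ± 1.5 CPM per kb in control and 2.61 ± 1.16 in mutant IEC, whereas Lama5 went from 0.187 ± 0.0147 to 15.1 ± 1.98 CPM per kb. The shift in shares therefore came mostly from Lama5. Lama1, Lama2 and Lama4 together stayed minor, none with a mean above 0.986% in either group.

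Lamb3 was the main β chain in both groups, with 89.0% ± 6.76 of the β total in control and 96.2% ± 0.877 in mutant IEC. Lamb1 and Lamb2 shared the rest, at 0.0949 to 0.172 and 0.157 to 0.233 CPM per kb in control IEC, levels that overlapped between these genes. Lamc1 was at 0.861 ± 0.0479 CPM per kb in control and 9.1 ± 2.03 CPM per kb in mutant IEC. Of the nidogens, Nid1 made up 24.8% ± 29.8 in control and 98.8% ± 1.35 in mutant IEC. The wide control spread comes from Nid2, which was low in C1 and high in C3 and C3-3. The control share was 7.63% without C1, and up to 33.5% without another control mouse.

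The summed α chains were at 4.68 ± 1.5 CPM per kb in control and 17.8 ± 3.15 in mutant IEC and the β chains at 3.18 ± 0.887 and 6.79 ± 1.27. The ratio of α to β RNA was 1.38 to 1.58 in control and 1.96 to 3.12 in mutant mice. The nidogens summed to less than the α or the β chains in control IEC, at 0.917 ± 0.575 CPM per kb, and to more than either in mutant IEC, at 30.9 ± 5.48. These are ratios of RNA, not of secreted protein.

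**Figure D3:**
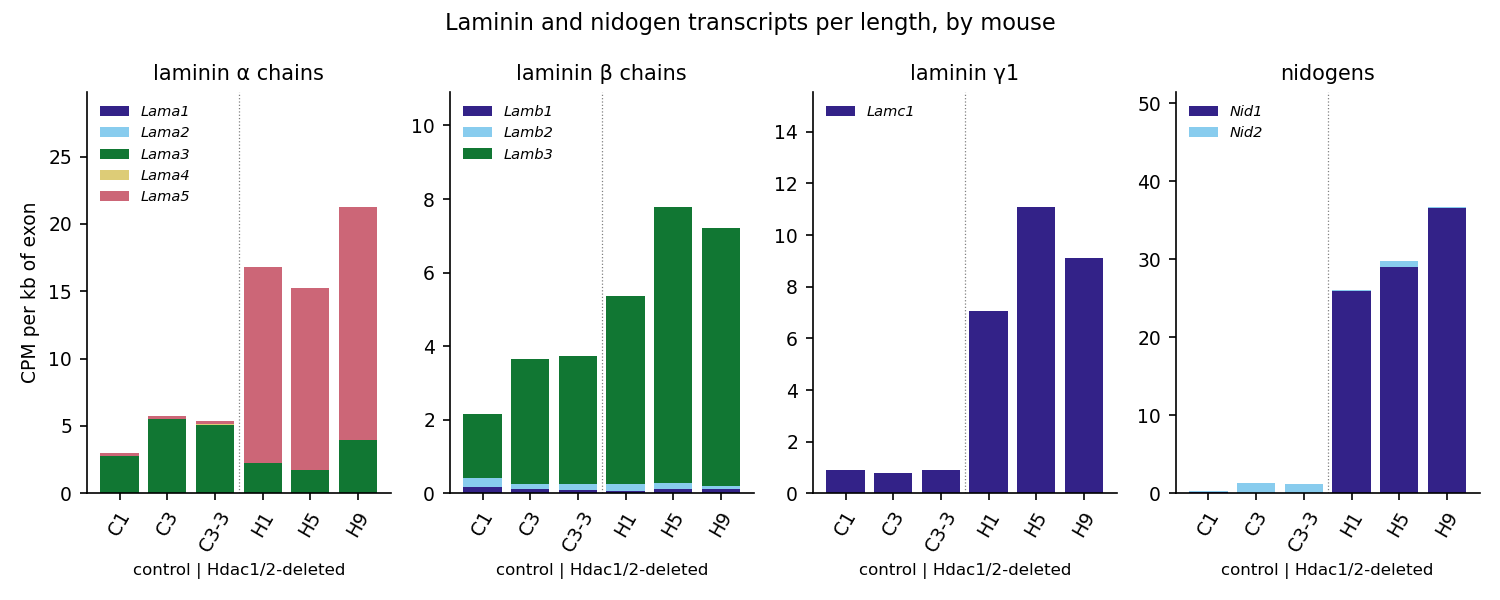
CPM per kb of annotated exon in each mouse, stacked by gene, for the laminin α and β chains, Lamc1 and the nidogens, each panel on its own linear scale from 0. Lama5 and Nid1 fill the α and nidogen bars of the 3 mutant mice, Lamb3 fills the β bars of all 6, and Lamc1 is higher in each mutant mouse than in any control mouse.

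Of the α chains outside the set, Lama4, the α4 chain of blood vessel and muscle basement membranes, was at 0.339 to 0.576 CPM in control and 0.148 to 0.211 CPM in mutant mice. It was called decreased (log2 fold change -1.39, standard error 0.44, edgeR adjusted p = 0.031), a call lost without C1 and C3 (-0.83, adjusted p = 0.49) and in several other alternatives. Lama2, the α2 chain of muscle, had at most 10 counts in any library and was not tested.

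Other parts of the basement membrane followed no single direction. Of 25 genes listed, 20 were tested, with a median log2 fold change of 0.80, against -0.01 over all genes tested. Among them, 8 were called increased, 4 were called decreased and 8 were not called. Shares over all genes tested were 12.4% increased and 12.7% decreased. Npnt, or nephronectin, an integrin ligand, had the largest change, from 0.549 ± 0.19 to 43.0 ± 2.81 CPM (log2 fold change 6.27, edgeR adjusted p = 2.3e-06). The heparan sulfate proteoglycans Hspg2 (perlecan) and Agrn (agrin) also rose. Hspg2 was at 20.5, 20.2 and 19.4 CPM in control and 115, 221 and 136 CPM in mutant mice (log2 fold change 2.97, adjusted p = 4.7e-05). Agrn was at 119, 156 and 126 CPM in control and 430, 415 and 450 CPM in mutant mice (1.69, adjusted p = 6.9e-05). In both genes the mutant mice lay above all control mice.

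Col7a1, the collagen of anchoring fibrils, rose by 2.85 on the log2 scale, and Frem2, an epithelial protein of the Fraser complex, by 2.64. Frem2 was low, at 0.462 ± 0.127 CPM in control and 2.9 ± 0.982 CPM in mutant IEC. The remaining increased genes, named after their values were seen, were Smoc1, Tinagl1 and Ecm1. For Ecm1 the groups overlapped (log2 fold change 1.27, edgeR adjusted p = 0.037). With each mouse left out in turn, 7 to 8 genes of this list were called increased. Fras1, which works in the same complex as Frem2, moved the other way, from 56.1 ± 14.4 to 4.02 ± 1.19 CPM (log2 fold change -3.81, edgeR adjusted p = 3.6e-05). Ntn4, a netrin that binds laminin γ1 and disturbs laminin networks, fell from 22.4 ± 6.96 to 2.29 ± 0.209 CPM (-3.29, adjusted p = 4.5e-05). Col15a1 and Fbln1, also named after their values were seen, were the other decreased genes.

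The type IV collagen genes Col4a1 and Col4a2, which nidogens join to laminin, were uneven among control mice. Col4a1 was at 4.14, 1.12 and 0.188 CPM in C1, C3 and C3-3 and at 5.87, 7.79 and 6.42 CPM in mutant mice. It was not called (log2 fold change 1.87, adjusted p = 0.14), but was called with limma-voom on all 6 libraries (2.67, adjusted p = 0.042), without C1 (3.36, adjusted p = 0.0066) and without C1 and C3 (5.15, adjusted p = 0.00013), where a single control mouse is assumed to vary like the others. Col4a2 was at 2.49, 0.954 and 0.0565 CPM in control and 1.74, 2.47 and 1.9 CPM in mutant mice (0.79, adjusted p = 0.54), and was called without C1 and C3 at 5.13 (adjusted p = 0.00099). The control libraries with most Col4a1 and Col4a2, C1 and C3, were those with smooth muscle RNA. The part of that RNA in these values was not tested.

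**Figure D4:**
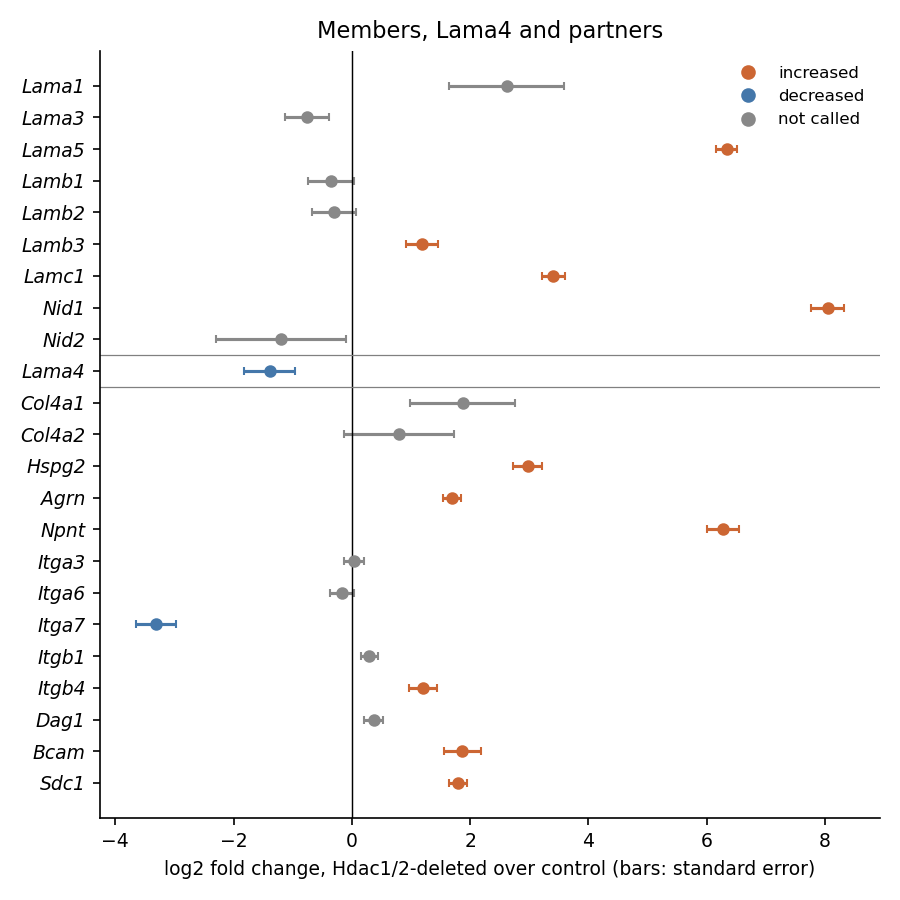
Log2 fold change of mutant over control IEC with its standard error for the 9 members, Lama4 and 13 partners of the basement membrane, coloured by call. Nid1, at 8.05, and Lama5, at 6.34, lie far to the right with short bars, whereas Lama1 and Nid2 have the widest bars of the members.

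The listed genes for laminin receptors and adhesion, not all of them receptors of IEC, moved in both directions. Of 23 genes for laminin receptors and adhesion, all tested, 4 were increased, 3 decreased and 16 not called, with a median log2 fold change of -0.17, against the 12.4% and 12.7% called in each direction over all genes. Itgb4, the hemidesmosomal integrin β4, was at 176, 300 and 285 CPM in control and 468, 621 and 664 CPM in mutant mice (log2 fold change 1.21, edgeR adjusted p = 0.0032). Its α partner Itga6 stood at 149 ± 40.9 and 132 ± 13.0 CPM (-0.17, adjusted p = 0.53). Bcam, an immunoglobulin family receptor for laminin α5, rose from 4.77 ± 1.09 to 17.4 ± 6.98 CPM (1.86, adjusted p = 0.0016), and the syndecan Sdc1 from 84.9 ± 9.04 to 294 ± 31.2 CPM (1.79, adjusted p = 4.9e-05). The last increased gene was Itga2, a collagen and laminin receptor that falls outside the naming rule, at 1.18.

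The decreased receptors were Sdc2 (log2 fold change -4.65), Itga7 (-3.32) and Itga1 (-3.19). Itga7 is best known as the laminin receptor of muscle and went from 3.06 ± 0.625 to 0.308 ± 0.0454 CPM. Its fold change without the control mice C1 and C3 was close to this (-3.39, edgeR adjusted p = 0.00074). Several laminin receptors of the epithelium were not called. Itga3 was at 377 ± 51.8 and 386 ± 54.4 CPM (0.03, adjusted p = 0.89) and Itgb1 at 153 ± 6.27 and 188 ± 21.8 CPM (0.30, adjusted p = 0.12). Dag1, which encodes dystroglycan, was at 341 ± 46.7 and 440 ± 33.9 CPM (0.37, adjusted p = 0.090). Dystroglycan binds laminin through a sugar chain made by a set of Golgi enzymes. Of 13 genes for these enzymes, all tested, 0 were called in either direction at 2-fold, with a median of -0.11. At an adjusted p of at most 0.05 with no fold limit, 3 were higher and 1 was lower, against 20.5% and 20.3% of all genes.

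Matrix proteases and their inhibitors moved both ways, with 4 increased and 4 decreased of 17 tested and a median log2 fold change of 0.29. Shares over all genes tested were 12.4% increased and 12.7% decreased. Those increased were the protease genes Ctsl (2.23, edgeR adjusted p = 0.00048) and Mmp14 (1.59, adjusted p = 0.00075) and the inhibitors Timp3 (1.45, adjusted p = 0.0091) and Timp2, the last named after its value was seen. Those decreased were Bmp1, a protease that trims procollagens (-1.67, adjusted p = 0.0012), Hpse, or heparanase (-1.64, adjusted p = 0.0012), Ctss (-1.59, adjusted p = 5.9e-05) and Mmp7, which also lies outside the naming rule.

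**Figure D5:**
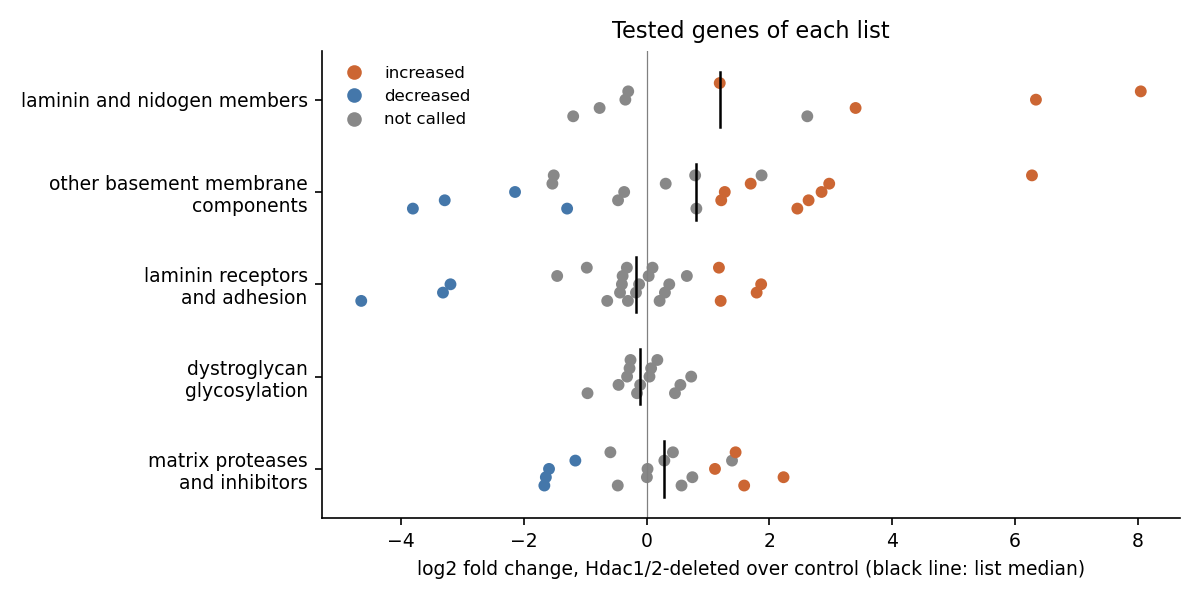
Log2 fold change of each tested gene, mutant over control IEC, in the members and in 4 lists of genes for the basement membrane and its receptors, with a black line at the list median. The medians were 1.19 for the members, 0.80 for other basement membrane components, -0.17 for receptors, -0.11 for dystroglycan glycosylation and 0.29 for proteases and inhibitors.

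The nearest protein-coding genes in the table beside the 9 members were also examined. Of 17 neighbours, 13 were tested, 0 were increased, 3 were decreased and 10 were not called. The shares over all genes tested were 12.4% increased and 12.7% decreased. Beside Lamc1, Dhx9 was not called (log2 fold change 0.24, edgeR adjusted p = 0.29). Adrm1, only 86 bases from Lama5, was at 78.6 CPM in control and 102 CPM in mutant IEC and was not called (0.37, adjusted p = 0.082), nor was Rps21 on the other side (0.33, adjusted p = 0.15). Beside Nid1, Lyst was decreased (-1.34, adjusted p = 0.0044) and Gpr137b was too low to test. Both neighbours of Lama3, Ankrd29 (-2.51, adjusted p = 0.0038) and Ttc39c (-1.21, adjusted p = 0.00042), were decreased. At an unadjusted p under 0.05 in edgeR, 1 neighbour was higher in mutant IEC, and DESeq2 and limma-voom called 0 increased.

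Profiles most like those of the 3 members with the largest called changes were sought among all other tested genes, by the Euclidean distance between centred log2(CPM + 0.1) values of the 6 mice. For Nid1 these were Apoc1 (distance 0.775), Hif3a (0.923) and S100a5 (0.971). Hif3a, for example, was at 0.378 to 0.621 CPM in control and 111 to 201 CPM in mutant mice. For Lama5 they were Ly6f (0.317), Rasal1 (0.344) and Glis2 (0.401), and for Lamc1 they were Bco1 (0.167), March9 (0.349) and Atp2b3 (0.352). Glis2 was at 0.565 to 0.666 CPM in control and 41.8 to 59.2 CPM in mutant mice, and Bco1 at 1.35 to 1.71 and 13.4 to 20.0 CPM. Ly6f and Atp2b3 had at most 1 count in any control library, Apoc1 and S100a5 at most 7, and Rasal1 at most 11. The distances of all these genes depend on the 0.1 CPM added before the logarithm. Likeness over 6 mice in 2 groups mostly restates the group difference.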

How the data were processed

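Jejunal IEC RNA of 3 control and 3 Hdac1/2-deleted mice was made into directional poly(A) libraries by the authors and aligned with STAR. The processing notes give STAR 2.4.0f1 and mm9, while the methods give GRCm38. The counting program, its strand setting and the annotation are not given in the sources used here, so reads of genes that overlap on opposite strands may not be told apart. The authors deposited counts of reads per gene, not normalized, for 19616 genes with at least 10 counts over the 6 libraries. The same table holds scaled counts and the authors' own fold changes and p-values, which were not used. The labels give no batch, and p-values measure the spread between these mice.

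Counts were filtered with filterByExpr, normalized with TMM (factors 0.8916 to 1.136) and fitted by group with the robust quasi-likelihood method of edgeR 4.0.16 in R 4.3.3, the prior count being 0.125. Adjusted p-values are Benjamini-Hochberg values over 15618 genes, and calls need at most 0.05 and 2-fold, the limits of the study's methods. Standard errors of edgeR fold changes were taken as the absolute log2 fold change divided by the square root of the test's F statistic. They are therefore approximate. Positions and exon lengths came from GENCODE release 21 on GRCm38, which held 19526 of the identifiers. Levels per kb use the union of annotated exons. Promoter windows are RefSeq's. The fit was tested on simulated counts. Alternatives used RLE or library totals, other filters and prior counts, DESeq2 1.42.0, limma-voom (limma 3.58.1), no fold limit, coding lengths, and left out each mouse. Leaving out C1 and C3 together was chosen after seeing the data.

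A result on 1 further gene is not reported here. The members and gene lists were chosen with earlier results of these data known. Named in the text are the members, Lama2 and Lama4, up to 6 called genes of each list with the largest changes, 10 receptors and matrix genes whatever their change, the neighbours of the members, and the 3 genes nearest in profile to Nid1, Lama5 and Lamc1.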

Additional observations from a re-analysis of the deposited data

How the results depend on the processing

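Across 15 alternatives, the calls of Nid1, Lama5 and Lamc1 held in each. The count of increased members was 4 in every alternative but limma-voom, where it was 5, but its makeup changed: without C1, and without C1 and C3, Lamb3 left the calls and Lama1 entered. With each mouse left out in turn, 0 to 1 members were called decreased, Lama3 being called without C1 and without H9, and the median of the members ranged from 0.94 to 1.36. With at least 10 counts required in every library, which removes Lama1, that median was 0.46. The decreased α chain outside the set, Lama4, lost its call with library totals, in DESeq2 and without C1 and C3. The 10-count filter removed Lama4 from the test. Each of these left 0 decreased chains. When mice were left out singly, the Lama4 call held only without C3-3. It was lost without C1, C3, H1, H5 or H9, at edgeR adjusted p of 0.065 to 0.11. With no fold limit, 6 genes of the list of laminin receptors and adhesion were decreased and 5 increased. In the same setting, 3 dystroglycan glycosylation genes were increased and 1 decreased. Among all genes, 20.5% were then increased and 20.3% decreased. Leaving out each mouse gave 0 to 1 decreased glycosylation genes, with 1 without C3-3 and without H9. Signs turned for genes near 0: Lamb1 to 0.066 without C1 and C3, Itga3 to -0.17 without C1 and C3 and within -0.053 to 0.16 with each mouse left out (below 0 without C1, C3 or H9), and Itga6 to 0.0048 with library totals and within -0.35 to 0.048 with each mouse left out (above 0 without C1). With coding length in place of exon length, Lamb3 made up 97.2% of mutant β chains. Scaling by library totals moved the median of all genes to 0.18, with 2463 increased and 1538 decreased genes against 1944 and 1990. The cause of these shifts was not tested. No paired analysis was possible because the labels record no pairs of control and mutant mice. Depth limits Lama1, Lama2 and Lama4 most, with at most 28, 10 and 38 counts in a library.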

Other observations

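Nid2 did not divide the mice by genotype, and genes with the most similar profile were looked up after its values had been seen. They were Cyp2a12 (distance 1.41), Sbsn (1.46) and Gzmb (1.49), on the same measure as for Nid1. Cyp2a12 had 0 counts in C1 and H1, so its distance depends on the 0.1 CPM added before the logarithm. Gzmb, which encodes granzyme B of cytotoxic lymphocytes, was at 16.5, 70.6 and 62.0 CPM in C1, C3 and C3-3 and at 6.75, 27.5 and 7.46 CPM in H1, H5 and H9. As for Nid2, C3 and C3-3 were the highest control mice and H5 the highest mutant mouse. Sbsn, the suprabasin gene, was at 0.196, 1.17 and 1.49 CPM in control and 0.108, 0.553 and 0.293 CPM in mutant mice. These distances are larger than those found for the 3 genes nearest to Nid1, at most 0.971.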
